A study of Mus musculus with 16 samples.

Results

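Cultures of P19CL6, an embryonal carcinoma cell line of the mouse that turns into beating cardiac muscle in the solvent dimethyl sulfoxide (DMSO), were profiled on whole-genome oligonucleotide arrays. The comparison described here sets the cultures held in 1% DMSO for 12 days (2 arrays, replicates A and C) against those held in it for 6 days (2 arrays, replicates B and C). These are 4 of the 16 arrays of the series, which also cover growing cells without DMSO and days 4, 8 and 10. Every culture was the same unmodified line, each array came from an independent sample, and the differentiation medium was renewed every 48 h. All genes with a probe set of their own were in scope: 18193 were represented, and the 10802 with a log2 signal above 4 on at least 2 of the 16 arrays were tested. No culture was kept for 12 days without DMSO, so time in the dish and exposure to DMSO cannot be told apart. The arrays read RNA of a whole culture, where more cells of a type and more RNA per cell cannot be told apart either.

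Cardiac muscle cells contract through the sarcomere, in which myosin of the thick filament pulls on actin of the thin filament between Z discs, each time calcium released from the sarcoplasmic reticulum binds troponin. Their precursors are dividing mesoderm cells, and heart muscle comes to burn fatty acids in its mitochondria. Around muscle, fibroblasts and the epicardium, the outer cell sheet of the heart, lay down collagens and proteoglycans.

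Between day 6 and day 12, 1475 genes rose and 1008 fell, which is 13.7% and 9.33% of the genes tested. A gene was called when limma's moderated test gave an adjusted p under 0.05 and the means differed by at least 1 on the log2 scale. The median difference over all genes was -0.03. When the arrays were normalized to a common distribution again, that median moved to -0.16 and the split became 1343 higher and 1359 lower. Muscle, matrix and energy genes stood out on the rising side, and cell cycle and early mesoderm genes on the falling side. Ribosomal 18S control probe sets were brighter on the day 12 arrays (8.04 and 8.69) than on the day 6 arrays (6.02 and 6.62), as was a group of poly-A spike-in controls (mean 6.51 against 4.87). Their part in the differences was not tested. The share of probe sets with a log2 signal above 4 lay between 40.4% and 42.5% on these 4 arrays. On day 8, replicate A stood apart from B and C, so day 8 levels are given from B and C only.

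**Figure D1:**
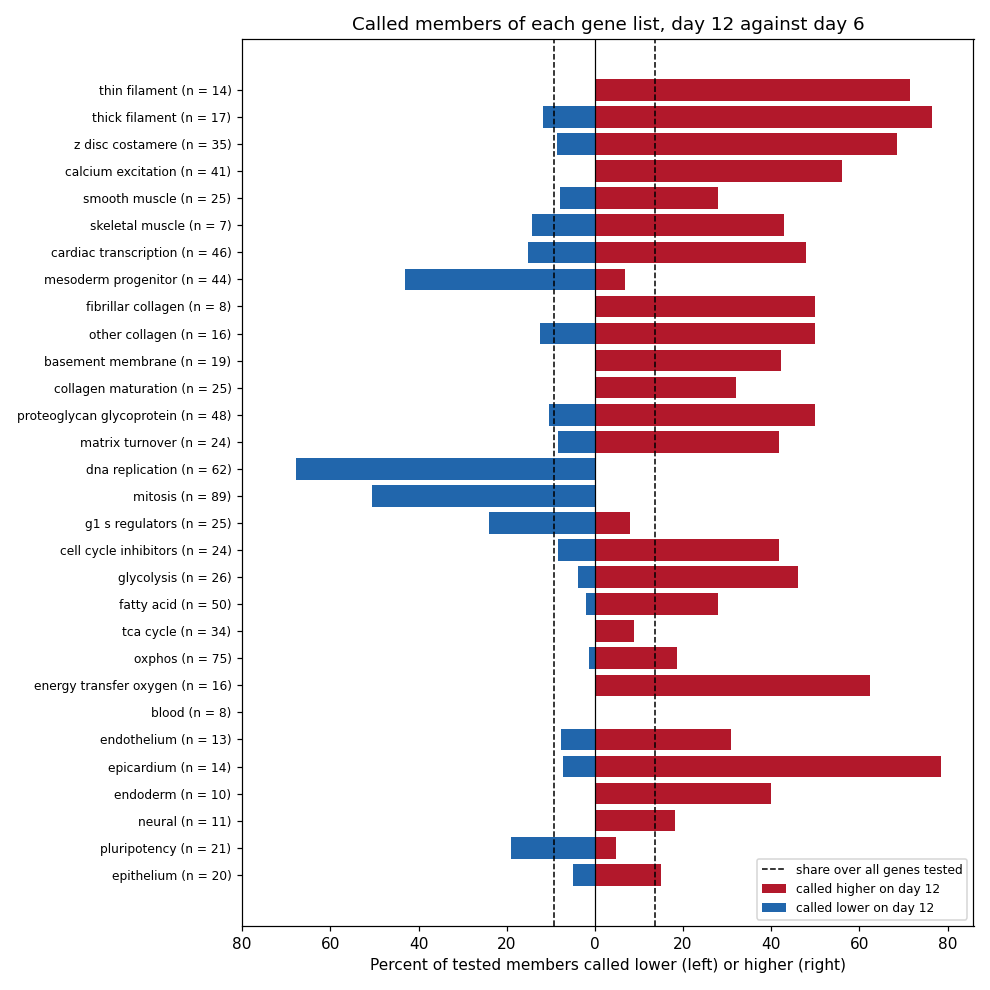
Percent of the tested members of each gene list that were called higher (red, to the right) or lower (blue, to the left) on day 12 than on day 6, with the number tested in brackets. Dashed lines mark the shares over all genes, 13.7% and 9.33%. Sarcomere, calcium and epicardium lists extend far to the right, and DNA replication and mitosis to the left.

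The 4 genes that mark the comparison differed strongly. The cardiac myosin heavy chain gene Myh6 had log2 signals of 3.12 and 3.15 on the day 6 arrays and 13.61 and 13.85 on the day 12 arrays. Col3a1, which encodes the fibrillar collagen of elastic tissues, stood at 2.90 and 2.83 on day 6 and at 12.06 and 12.26 on day 12. Both were dim on day 6 and among the brightest genes on day 12. The transcription factor genes Hand1 and Hand2, close relatives that act in different parts of the forming heart, moved in opposite directions. Hand2 rose from 7.18 and 6.33 to 11.61 and 12.28 (difference 5.19, SE 1.00, limma adjusted p = 0.00148). Hand1 fell from 10.28 and 10.85 to 6.86 and 7.06 (difference -3.60, SE 0.86, limma adjusted p = 0.00546). In neither gene did an array of day 12 overlap an array of day 6. Hand2 was already at a mean of 12.22 on day 10, whereas the mean of Hand1 was then 9.15, with its day 12 level still to come.

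Sarcomere genes made the largest rises of the whole comparison. Of 102 listed genes of the thin filament, thick filament, Z disc and costamere, 98 were on the array and 66 passed the filter on dim signals. Of these, 47 rose and 5 fell, where 13.7% and 9.33% of all genes did, with a median difference of 3.10 on the log2 scale against -0.03 for all genes. Because a muscle gene could pass the filter through its day 12 signal alone, the fit was also run on every gene: 45 of the 98 then rose, beside 7.70% of 18193 genes. The median difference over the 98 was then 1.01, against -0.02 over all 18193. Myl7, the regulatory light chain of atrial myosin, had the largest rise of any gene, from 3.36 and 2.60 to 14.70 and 14.69 (limma adjusted p = 0.000343). Where both arrays of a group lay below a log2 signal of 4, the fold is given as a bound computed with that group at 4, which for Myl7 was at least 1658-fold. Actc1, cardiac alpha-actin, went from 2.89 and 2.29 to 13.92 and 13.79, at least 927-fold. Myh6 rose at least 850-fold and the embryonic and atrial light chain gene Myl4 at least 814-fold. The day 6 arrays of these genes sat at the dim end of the scale, and the day 12 arrays near its top.

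Each part of the contractile apparatus took part. In the thin filament, 10 of 14 tested genes rose and none was called lower by limma, with 2 lower at an unadjusted p under 0.05. The troponin T gene Tnnt2, whose product ties troponin to tropomyosin, was already measurable on day 6, with 6.21 and 5.60 rising to 13.97 and 14.16 (286-fold, limma adjusted p = 3.14e-05). The cardiac troponin I gene Tnni3 rose from 2.35 and 2.32 to 11.24 and 10.46, and the troponin C gene Tnnc1 rose 30.4-fold. Tropomyosin genes differed among themselves: the muscle gene Tpm1 rose by 2.10 (SE 0.33) and Tpm2, Tpm3 and Tpm4 had differences of 0.00, -0.42 and -0.47 that did not pass. In the thick filament, 13 of 17 rose, among them the giant spring protein gene Ttn (3.49 and 3.46 to 9.60 and 10.78) and the myosin-binding gene Mybpc3 (3.10 and 2.74 to 10.84 and 10.31). At the Z disc and costamere, 24 of 35 rose, led by Csrp3, Ldb3 and Hspb7, which were dim on day 6 and rose at least 98.8-, 74.4- and 37.9-fold. Desmin, Des, the intermediate filament of muscle, rose from 3.29 and 3.79 to 7.59 and 8.10, and the small heat shock gene Cryab from 6.49 and 5.94 to 10.67 and 10.67. Genes measurable on day 6 rose as well, among them Tnni1, the troponin I of fetal heart and slow muscle (9.38 and 9.20 to 13.25 and 13.16), and Unc45b, a chaperone of myosin (7.08 and 6.98 to 11.27 and 11.08). The skeletal alpha-actin gene Acta1, also used by the fetal heart, rose 21.6-fold. The 5 sarcomere list members that fell were Hsp90aa1 and Smyd2, a chaperone and a methyltransferase also found outside muscle, and Actn1, Csrp2 and Fhl1, with differences between -1.01 and -1.62. The calls of Hsp90aa1 and Actn1 were lost when single arrays were left out: the difference was -0.95 for Hsp90aa1 without day 12 replicate A, -0.98 without day 6 replicate B, and for Actn1 -0.94 without day 6 replicate C and -0.95 without day 12 replicate C, short of the minimum of 1.

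**Figure D2:**
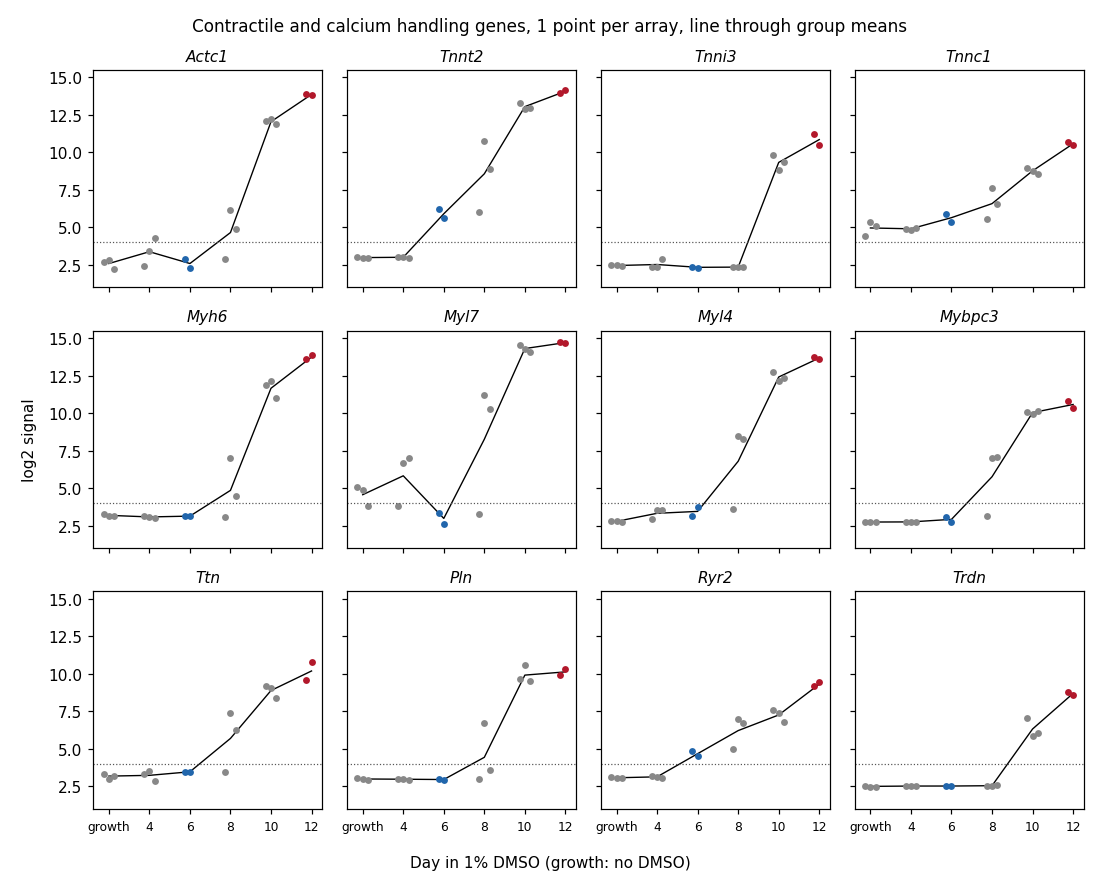
Log2 signal of 12 contractile and calcium handling genes on each of the 16 arrays, by day in DMSO, with day 6 in blue, day 12 in red, other groups in grey and a line through the group means; the dotted line marks the dim limit of 4. Each gene is higher on both day 12 arrays than on both day 6 arrays, and on day 8 replicate A is the lowest of 3 arrays in each gene but Trdn.

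Most markers of skeletal muscle were not measurable. Of 28 such genes on the array 7 passed the filter. The determination factors Myod1, Myf5 and Myog and the fast-fibre genes Tnnt3, Tnni2, Tnnc2 and Mylpf were below it. Among the 7, the calcium buffer gene Casq1, the muscle transcription factor gene Mef2c and the alpha-actinin gene Actn3 rose, and the homeobox gene Six4 fell. The call of Mef2c was lost without day 6 replicate C (limma adjusted p = 0.111) or day 12 replicate C (0.0679). The summed signal of the 7, as the log2 of the sum of their unlogged signals, was 8.63 and 8.07 on the day 6 arrays and 9.24 and 9.60 on the day 12 arrays. Mef2c, at 8.84 and 9.31, made up most of the day 12 sum, and Casq1 and Actn3 then lay between 4.76 and 5.32. Of 25 smooth muscle genes tested, 7 rose and 2 fell, where 13.7% and 9.33% of all genes tested did. The share that fell was thus near the background. In the fit on every gene, 7 of 29 rose and 1 fell, beside 7.70% and 5.04% of all genes. Myl9, the smooth muscle regulatory light chain, rose from 3.18 and 3.71 to 13.27 and 12.98, Acta2 rose 59.0-fold and Tagln 40.5-fold. Cnn1, the calponin of smooth muscle, went from 2.88 and 2.78 to 8.12 and 7.39, and the adhesion gene Mcam from 2.87 and 3.02 to 8.03 and 8.32. Rgs5, a pericyte gene, was the larger fall, from 8.80 and 7.77 to 4.58 and 4.22. The master coactivator Myocd had 2.89 and 2.86 on day 6 and 4.36 and 6.76 on day 12, which did not pass (limma adjusted p = 0.10), and Myh11, the defining smooth muscle myosin, was below the filter. The summed smooth muscle signal went from 13.79 and 13.87 to 15.16 and 15.23. Muscle actin genes are close copies of each other, and how far their probe sets cross-react was not tested. The part of smooth muscle in the contractile rise was not tested; the heart genes Myh6, Tnnt2 and Tnni3 are in no smooth muscle list here.

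The promoters of the contractile genes are shown because most of these genes moved together. Of the 47 that rose, 42 had promoter windows in RefSeq (mouse build GRCm38.p6), each running from 250 bases before the start to 50 after it. A window was searched on both strands for 8 motifs. They were the CCAAT box, the cell cycle element TTTGAA, the TATA box TATAAA, the TEAD core CATTCC, the GC box CCCGCC, the E box CANNTG, the E2F-type letters given with the replication genes, and the CArG box bound by serum response factor. The CArG box was present in 19% of the 58 windows of the contractile genes that rose. It was in 1 of 14 windows of contractile genes that were not called. Of 11343 windows of all genes tested 1.38% held it, and of all 32851 windows 1.63%. The letters CATTCC were in 34.5% of the first group, 21.4% of the second, 11.9% of windows of genes tested and 14.7% of all. In the same order, the TATA box was in 22.4%, 7.14% (1 window), 6.89% and 13.6%. The E box was in 77.6%, 78.6%, 62.8% and 72.3%. These are counts of letters, not of bound sites. The 250 bases before the start are printed for the 2 genes with the largest rises among those with a single promoter window and a CArG box, which the capitals mark.
Myl7 (chr11:5898783-5899032, minus strand): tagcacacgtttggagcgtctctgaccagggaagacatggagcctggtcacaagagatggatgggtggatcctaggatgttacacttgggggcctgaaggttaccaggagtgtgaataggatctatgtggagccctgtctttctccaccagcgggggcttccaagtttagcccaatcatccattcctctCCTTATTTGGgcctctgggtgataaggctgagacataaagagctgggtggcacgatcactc
Actc1 (chr2:114052876-114053125, minus strand): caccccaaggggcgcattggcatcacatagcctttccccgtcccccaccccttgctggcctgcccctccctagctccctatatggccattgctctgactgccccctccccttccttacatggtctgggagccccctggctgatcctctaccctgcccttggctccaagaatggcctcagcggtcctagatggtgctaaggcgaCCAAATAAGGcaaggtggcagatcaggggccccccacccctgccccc
The box lies 61 to 52 bases before the start of Myl7 and 47 to 38 bases before that of Actc1.

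Calcium handling and excitation genes followed the sarcomere. Of 74 listed, 60 were on the array and 41 were tested: 23 rose and none was called lower by limma, with a median difference of 1.51. At an unadjusted p under 0.05, 3 were lower, and 2 were called lower once the arrays had been normalized again. In the fit without the filter, 25 of the 60 rose, beside 7.70% of all genes, with a median difference of 0.60. Pln, the brake on the calcium pump of the sarcoplasmic reticulum, rose from 3.00 and 2.92 to 9.91 and 10.35, at least 70.03-fold (limma adjusted p = 3.09e-05). Trdn, which anchors the calcium release complex, rose from 2.55 and 2.50 to 8.78 and 8.61. The release channel gene Ryr2 was measurable on day 6 at 4.85 and 4.51 and reached 9.16 and 9.46, a 24.8-fold rise. The day 12 arrays of these 3 genes lay above every day 6 array by more than 4 log2 units. The sodium-calcium exchanger gene Slc8a1 rose at least 16-fold, the calcium channel subunit Cacna2d2 by 6.01 (SE 0.53) and the potassium channel Kcnh2 by 3.83 (SE 0.39). Popdc2, a membrane protein of the conduction system, rose from 2.27 and 2.23 to 7.69 and 7.81, and the sodium pump subunit Atp1b1 rose 11.8-fold. The pump itself, Atp2a2, was bright on both days (11.51 and 11.36, then 12.04 and 12.08) and did not pass (limma adjusted p = 0.0588). Gap junction genes Gja1 and Gjc1 were likewise bright, with differences of -0.20 and -0.05 and intervals that include 0. The natriuretic peptide genes Nppa and Nppb were below the filter.

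Regulators of heart development moved in both directions, with more rises than falls. Of 46 tested transcription factor genes of the heart (61 listed, 58 on the array), 22 rose and 7 fell. The same counts came from all 58 without the filter. Over all genes, 13.7% rose and 9.33% fell with the filter, and 7.70% and 5.04% without it. Shox2, a factor of the sinus venosus and pacemaker region, rose from 2.48 and 2.44 to 8.97 and 9.20 (limma adjusted p = 1.07e-06). Tbx18, known from the same region and from the epicardium, rose from 2.59 and 2.55 to 7.79 and 7.92. Nr2f2, a factor of atrial identity, rose 29.2-fold. The early cardiac factors Nkx2-5 and Tbx5 were dim on day 6 and rose at least 3.81-fold and 3.08-fold, and Gata4, Gata5 and Gata6 rose 4.27-, 9.90- and 4.33-fold. Isl1, a marker of second heart field progenitors, was at 8.50 and 8.24 on day 6 and 8.21 and 7.93 on day 12, with a difference of -0.29 (SE 0.61) that did not pass. Besides Hand1, the genes that fell included the Nodal signal partner Foxh1 (8.37 and 8.40 to 4.97 and 3.89) and Tbx3, a repressor of working muscle genes (9.06 and 9.63 to 7.24 and 6.44).

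Genes of early mesoderm and of the signals that form it fell. Of 53 listed, 51 were on the array and 44 tested: 19 fell and 3 rose, with a median difference of -1.27. Without the filter, 18 of 51 fell, beside 5.04% of all genes, 2 rose and the median difference was -0.63. Cyp26a1, which breaks down retinoic acid, went from 8.29 and 7.37 to 2.97 and 2.62, at least 14.2-fold lower. Axin2, a feedback target of Wnt signalling, fell 26.1-fold, from 8.50 and 8.66 to 4.51 and 3.24 (limma adjusted p = 4.75e-05). The BMP-responsive homeobox genes Msx1 and Msx2 fell 23.1- and 23.4-fold. Day 6 arrays were high and day 12 arrays low in each, without overlap. Cdx2, a caudal factor, Aplnr, the apelin receptor of migrating mesoderm, and Mesp1, an early cardiac mesoderm factor, lay below 4 on both day 12 arrays. Wnt5a and Dkk1 fell by 2.84 and 3.24 on the log2 scale. The members that rose were Aldh1a2, Kdr and Lefty1, and Aldh1a2, the retinoic acid synthesis gene, is also an epicardial marker. The call of Kdr, the VEGF receptor, was lost without day 6 replicate B, day 6 replicate C or day 12 replicate A (limma adjusted p between 0.0518 and 0.0588), and that of Lefty1 without day 6 replicate C or day 12 replicate A (0.149 and 0.199).

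**Figure D3:**
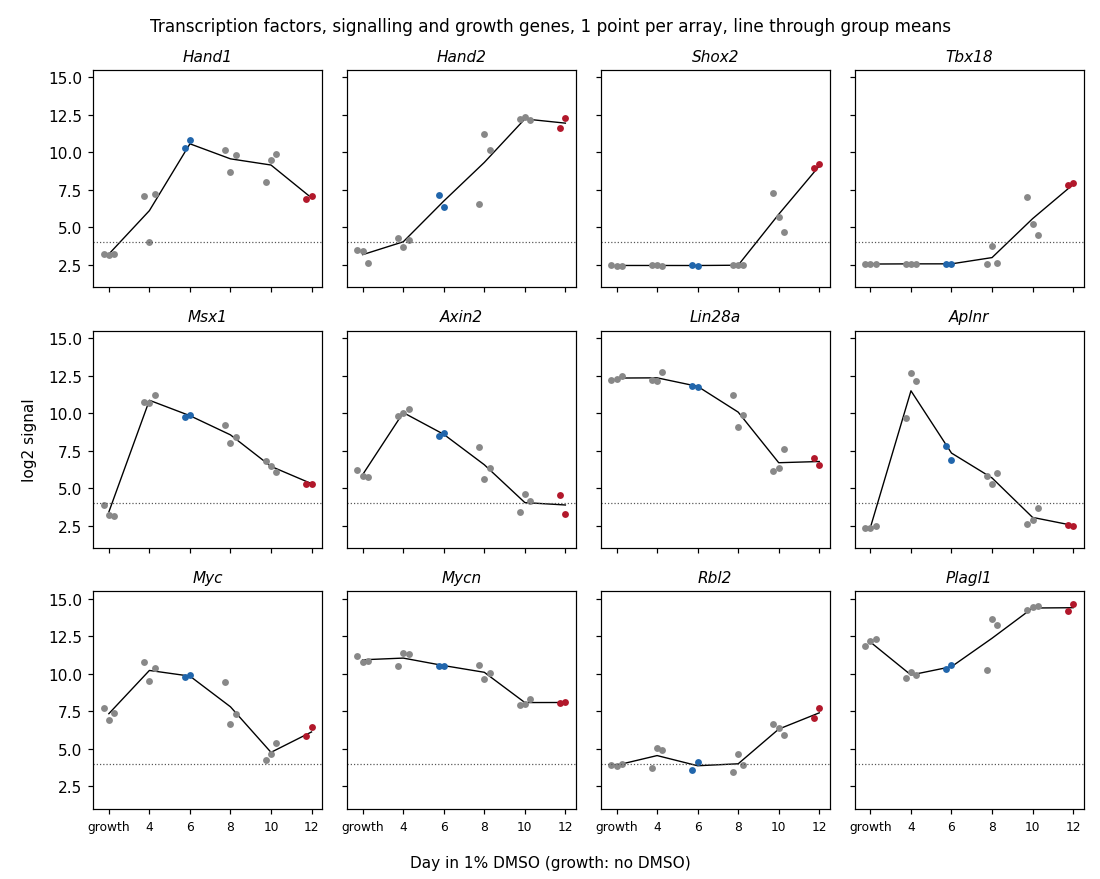
Log2 signal of 12 genes of transcription, signalling and growth on each array, by day in DMSO, drawn as for the contractile genes. Hand2, Shox2 and Tbx18 end at 7.79 or above on both day 12 arrays, whereas Axin2, Aplnr and Msx1 end at 5.30 or below.

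Genes of the cell cycle fell in large number and by small amounts. Of 184 listed genes of DNA replication, mitosis and the G1/S switch, 180 were on the array and 176 tested: 93 fell and 2 rose, and without the filter 90 of 180 fell, beside 5.04% of all genes. The median difference was -1.08, and only 7 of the 93 fell by 2 or more: Orc1, Mcm10, Pole, Ccnd1, Mycn, Mycl and Myc. In DNA replication, 42 of 62 fell and none rose by limma (0 at an unadjusted p under 0.05). The arrays of the days did not overlap, with day 12 lower, in 58 of the 62, against 35.3% of all genes. Orc1, of the complex that marks replication origins, went from 6.45 and 6.61 to 3.81 and 3.88, at least 5.77-fold lower (limma adjusted p = 9.05e-05). Cdt1, which loads the replicative helicase, fell from 11.82 and 11.86 to 9.93 and 9.76, and the helicase genes Mcm3, Mcm4, Mcm5 and Mcm7 fell 2.54-, 2.85-, 2.62- and 2.70-fold. The polymerase genes Pole and Pold1, for the leading and the lagging strand, fell 4.73- and 3.82-fold, and Cdc45, a part of the moving helicase, 3.36-fold. Of these genes Orc1 was below 4 on day 12 and the others were not. In mitosis, 45 of 89 fell and none rose by limma (0 at an unadjusted p under 0.05). Espl1, the protease that frees sister chromatids, fell from 8.58 and 9.01 to 6.85 and 6.85, and the kinase genes Plk1, Bub1 and Ttk fell 3.31-, 3.11- and 3.17-fold. Kifc1, a motor that gathers spindle poles, and Mybl2, a transcription factor of mitotic genes, fell 3.62- and 3.59-fold.

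**Figure D4:**
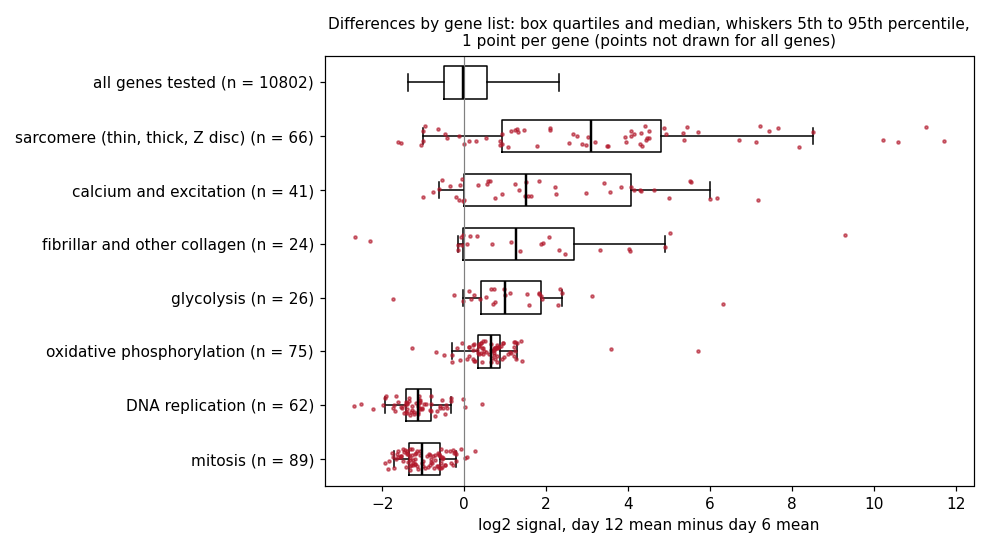
Difference in mean log2 signal, day 12 minus day 6, of the tested genes of 7 lists and of all genes; a point is a gene, the box gives the quartiles and the median, and the whiskers reach the 5th and 95th percentiles. Sarcomere genes spread up to 11.71, whereas replication and mitosis genes form a narrow band around medians of -1.13 and -1.04 and oxidative phosphorylation genes around 0.65.

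The promoter windows of these cell cycle genes are shown for the letters they share. The E2F-type motif, read as TTTGGCGC or else TTTCCCGC, was in 27.3% of 44 windows of replication genes that fell. It was in 19% of 21 windows of replication genes that were not called. Windows of all genes tested held it in 2.97% of cases, and all windows in 1.56%. In mitosis genes the CCAAT box was in 71.8% of 39 windows of those that fell and 72.1% of 43 windows of those not called. The shares were 37.7% in windows of genes tested and 37.4% in all. The letters TTTGAA, known as the cell cycle homology region of mitotic promoters, were in 69.2% and 53.5% of the same mitosis windows. They were in 11.6% of windows of genes tested and 17.9% of all. Members that were not called thus also held the motifs. The GC box, which can overlap the second E2F-type form, was in 68.2% of windows of the falling replication genes in 63.2% of windows of all genes tested and in 35.3% of all windows. Capitals mark the E2F-type letters in Mcm5 and Cdc6, which fell 2.62- and 2.46-fold, and the CCAAT box and TTTGAA, on either strand, in Espl1 and Ccnf, which fell 3.85- and 3.33-fold. They are the genes with the largest falls among those with a single window and the motifs, DNA repair genes left out.
Mcm5 (chr8:75109259-75109508, plus strand): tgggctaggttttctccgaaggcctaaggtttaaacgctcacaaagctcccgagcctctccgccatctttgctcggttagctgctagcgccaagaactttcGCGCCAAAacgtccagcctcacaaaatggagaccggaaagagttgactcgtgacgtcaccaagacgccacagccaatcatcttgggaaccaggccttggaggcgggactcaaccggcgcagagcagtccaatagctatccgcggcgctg
Cdc6 (chr11:98907901-98908150, plus strand): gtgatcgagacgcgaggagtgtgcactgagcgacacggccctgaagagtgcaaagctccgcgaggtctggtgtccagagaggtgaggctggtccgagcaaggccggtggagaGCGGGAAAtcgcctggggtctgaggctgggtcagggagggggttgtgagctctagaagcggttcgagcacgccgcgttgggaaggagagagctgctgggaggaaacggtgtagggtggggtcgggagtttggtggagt
Espl1 (chr15:102296043-102296292, plus strand): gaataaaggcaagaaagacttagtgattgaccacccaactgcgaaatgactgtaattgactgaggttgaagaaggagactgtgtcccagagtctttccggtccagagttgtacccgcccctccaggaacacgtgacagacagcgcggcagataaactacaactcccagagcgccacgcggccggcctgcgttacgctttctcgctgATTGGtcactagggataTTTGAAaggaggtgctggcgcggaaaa
Ccnf (chr17:24251410-24251659, minus strand): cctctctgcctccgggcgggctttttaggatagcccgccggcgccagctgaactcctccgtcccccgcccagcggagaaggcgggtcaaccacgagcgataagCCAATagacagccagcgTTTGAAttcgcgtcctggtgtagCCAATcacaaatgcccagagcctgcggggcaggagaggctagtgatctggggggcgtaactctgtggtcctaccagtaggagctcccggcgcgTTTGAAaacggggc
In Espl1 the CCAAT box reads on the minus strand, 44 to 40 bases before the start, with TTTGAA 27 to 22 bases before it.

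Growth regulators moved on both sides of the G1/S switch. Myc, a driver of growth and division, fell from 9.77 and 9.92 to 5.83 and 6.42 (13.2-fold, limma adjusted p = 0.00136), and Mycn fell 5.50-fold. Cyclin D1, Ccnd1, went from 7.95 and 7.26 to 4.56 and 5.92, but its call was lost without day 6 replicate B (limma adjusted p = 0.0808) or day 12 replicate A (0.107). The pocket protein gene Rbl2, a repressor of E2F targets in resting cells, rose from 3.62 and 4.13 to 7.08 and 7.72. It rose 11.5-fold, the larger of the 2 rises in the cell cycle lists. Rb1 rose 3.00-fold, a call lost without day 6 replicate C (limma adjusted p = 0.0605) or day 12 replicate C (0.0860). E2f1, Ccne1 and Ccne2 had differences of -0.70, -0.11 and 0.10. Of 24 tested inhibitors of the cycle and growth arrest genes, 10 rose and 2 fell, though 7 of 26 rose without the filter. The count rests on single arrays: 4 rose without day 6 replicate C, 4 without day 12 replicate C, 6 without day 6 replicate B and 7 without day 12 replicate A. Both falls, Sesn2 and Pkmyt1, were also lost when an array was left out, Sesn2 without day 6 replicate C (limma adjusted p = 0.0719) and Pkmyt1 without day 12 replicate C (difference -0.97, short of the minimum). Plagl1, an imprinted growth arrest factor, was bright on day 6 at 10.34 and 10.61 and reached 14.19 and 14.62. Cdkn2c, an inhibitor of Cdk4 and Cdk6, rose from 1.91 and 1.75 to 5.38 and 4.18. Gadd45b, a stress-induced arrest gene, rose at least 4.78-fold. The best known inhibitor, Cdkn1a, had 6.11 and 6.01, then 6.96 and 7.32, without passing (limma adjusted p = 0.27), and Cdkn1b differed by 0.29 (SE 0.29).

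Energy metabolism rose in many small steps with a few large ones. Of 244 listed genes, 226 were on the array and 201 tested: 53 rose and 3 fell, with a median difference of 0.60. Over all genes tested, 13.7% rose and 9.33% fell. Without the filter, 52 of 226 rose and 2 fell, beside 7.70% and 5.04% of all genes, with a median difference of 0.45. Glycogen and phosphate transfer genes led, with 10 of 16 rising. Ppp1r3c, which directs phosphatase to glycogen, rose from 3.93 and 4.29 to 10.66 and 10.22 (80.7-fold, limma adjusted p = 3.57e-05), and the branching enzyme gene Gbe1 4.36-fold. All 3 glycogen phosphorylase genes rose: Pygl 6.69-fold, Pygb 3.39-fold and the muscle form Pygm at least 3.07-fold. Glycogen synthase, Gys1, rose 2.74-fold. The muscle creatine kinase gene Ckm and myoglobin, Mb, were below the filter. Glycolysis followed, with 12 of 26 rising. Pgam2, the muscle phosphoglycerate mutase, rose from 5.27 and 5.71 to 12.04 and 11.56, hexokinase Hk1 rose 8.72-fold and the muscle glucose transporter Slc2a4 3.72-fold. Aldoc and Eno2, an aldolase and an enolase, rose 5.05- and 5.24-fold, and Pdk1, which holds pyruvate back from the mitochondrion, rose from 9.26 and 9.48 to 11.18 and 11.32. The lactate exporter gene Slc16a3 rose 3.57-fold. The embryonic glucose transporter Slc2a3 fell from 13.02 and 13.07 to 11.07 and 11.57, while Slc2a1 stayed bright with a difference of 0.13 (SE 0.23).

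Fatty acid genes rose in 14 of 50 cases, beside 13.7% of all genes tested. Cd36, the fatty acid transporter of heart muscle, was dim on day 6 (2.97 and 2.82) and reached 8.87 and 9.20, at least 32.9-fold higher (limma adjusted p = 4.58e-08). The coactivator of mitochondrial growth Ppargc1a rose from 3.38 and 3.27 to 7.49 and 7.16, and Cpt1a, the gate for fatty acids into mitochondria, rose 8.47-fold. Esrrg, a nuclear receptor that drives mitochondrial genes, rose from 3.43 and 3.42 to 6.51 and 7.45. Among enzymes, the thiolase gene Acat1 rose from 8.23 and 8.17 to 10.26 and 10.17 and Acaa2, the last step of beta-oxidation, rose 3.11-fold. In oxidative phosphorylation, 14 of 75 rose and 1 fell, which is near the background. The median difference was nevertheless 0.65, and 67 of the 75 genes had a difference above 0, against 5156 of all 10802. The exceptions in size were the subunits of cytochrome c oxidase used by heart and skeletal muscle, Cox7a1 (2.98 and 2.95 to 8.74 and 8.60) and Cox6a2 (5.06 and 4.48 to 8.68 and 8.02). The other 12 that rose, such as Ndufs8 and Atp5h, differed by 1.07 to 1.41. The tricarboxylic acid cycle list had a median of 0.06, with 3 of 34 rising, where 13.7% of all genes tested rose. Of the 3, the pyruvate carrier gene Mpc1 rose 3.92-fold and the aspartate-glutamate carrier gene Slc25a12 3.60-fold. The other, Me1, differed by 1.76. Its call was lost without day 6 replicate B (difference 1.55) or day 12 replicate C (1.66).

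Matrix genes rose across families. Of 208 listed matrix genes, 197 were on the array and 140 tested: 62 rose and 9 fell, with a median difference of 1.00. Without the filter, 60 of 197 rose, beside 7.70% of all genes. The median difference was then 0.22, against -0.02 for all genes. Fibrillar collagen genes rose in 4 of 8 cases. Besides Col3a1, at least 286-fold higher (limma adjusted p = 2.35e-08), Col5a2 rose from 8.01 and 7.99 to 11.81 and 12.30. Col1a2 rose from 2.49 and 2.82 to 7.45 and 7.65, though its adjusted p of 0.0097 became 0.0547 without day 6 replicate B and 0.0519 without day 12 replicate C. Its partner chain Col1a1 had 4.30 and 5.05, then 4.28 and 6.41, with overlapping arrays. All 3 tested collagen VI chains, Col6a1, Col6a2 and Col6a3, rose from below 4 on day 6, at least 18.1-, 4.57- and 3.80-fold. A minor fibrillar chain, Col11a1, rose at least 2.94-fold, and Col23a1, a membrane collagen, fell from 5.47 and 5.23 to 3.04 and 3.08. In the basement membrane, the sheet under epithelia and around muscle fibres, 8 of 19 rose: the laminin of mature muscle, Lama2, rose at least 10.1-fold. Nid1 and Nid2, which link laminin to collagen IV, rose 9.87- and 6.33-fold, and the collagen IV chains Col4a2 and Col4a5 3.11- and 6.70-fold. Npnt, an integrin ligand, rose from 3.60 and 4.35 to 8.61 and 9.06. The laminin chains Lama1 and Lama5 had differences of -1.29 and 0.37 that did not pass.

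Proteoglycan and glycoprotein genes rose in 24 of 48 cases and fell in 5. Smoc2, a calcium-binding matrix protein, rose from 3.01 and 4.34 to 9.69 and 9.04 (limma adjusted p = 7.42e-05), and Postn, a protein of fibroblasts and developing valves, from 4.22 and 4.88 to 8.26 and 8.62. The small leucine-rich proteoglycan genes Dcn, Lum and Fmod, whose products bind collagen fibrils, were below 4 on both day 6 arrays and lay between 6.04 and 7.28 on day 12. Tnc, a tenascin of tissue remodelling, rose from 3.76 and 3.37 to 7.75 and 8.39, and Tgfbi, a collagen-binding adhesion protein, 28.0-fold. Ccn4, a target of Wnt signalling, rose 25.2-fold and the spondin gene Spon1 21.9-fold. The fibulin genes Fbln2 and Efemp1, of elastic fibres, rose at least 13.2- and 14.1-fold. Hapln1, a link protein of hyaluronan, fell from 7.04 and 6.44 to 3.57 and 3.83, and the heparan sulfate carrier Gpc1 fell 4.74-fold. Enzymes that modify and cross-link collagen rose in 8 of 25 cases, and in 5 without day 6 replicate B or without day 12 replicate C. The call of Fkbp14 was lost without any 1 of the 4 arrays (limma adjusted p between 0.0522 and 0.128), and those of P4ha2 and Plod2 were lost in the 2 fits that gave 5. Among members that kept the call in all 4 fits, Lox, the lysyl oxidase, went from 2.27 and 2.24 to 5.77 and 5.57. The prolyl hydroxylase gene P4ha1 rose 2.84-fold and its relatives P3h3 and P3h4 at least 5.45-fold and 17.9-fold. Plod1, a lysyl hydroxylase, rose 3.52-fold. The collagen chaperone Serpinh1 was bright throughout and differed by 0.30 (SE 0.27). Among 24 proteases and inhibitors, 10 rose. Plat, the tissue plasminogen activator, led with a rise from 3.32 and 4.36 to 8.57 and 8.74, 28.2-fold. Adam12 and Adamts5 rose at least 22.1- and 12.8-fold, and the inhibitor gene Timp1 5.20-fold. Postn and Col1a2 had been higher still on day 10, with means of 10.06 and 8.83.

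**Figure D5:**
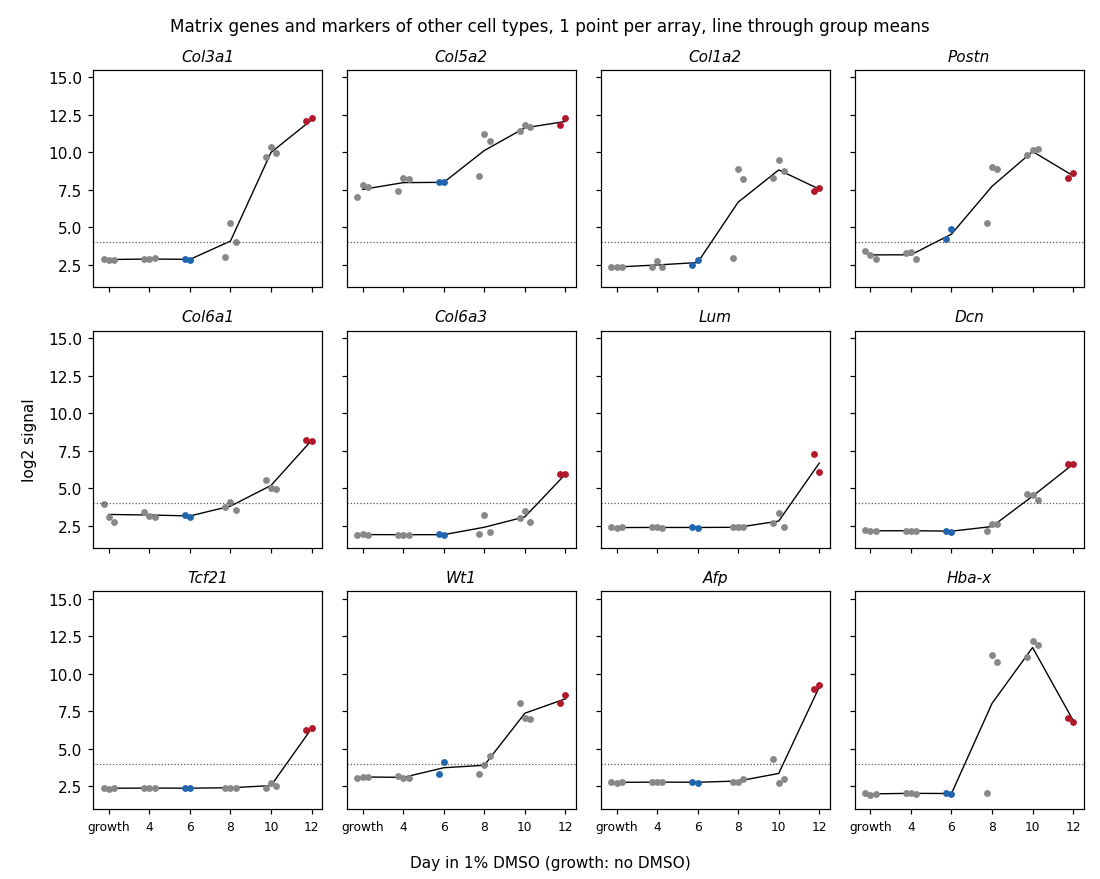
Log2 signal of 8 matrix genes and 4 markers of other cell types on each array, by day in DMSO, drawn as for the contractile genes. Col6a3, Lum and Tcf21 stay below 4 up to day 10 in their group means and exceed it only on the day 12 arrays, and Hba-x peaks on day 10.

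Most of the tested markers of the epicardium rose as well. Of 18 listed markers, 14 were tested: 11 rose and 1 fell, where 13.7% and 9.33% of all genes tested did. Tcf21, Sema3d and Rspo1 passed the filter through their day 12 signal alone. In the fit on every gene, 11 of the 18 rose and 0 fell, beside 7.70% and 5.04% of all genes. The surface protein gene Upk3b rose from 3.12 and 5.23 to 10.59 and 10.51, and Wt1, the Wilms tumour factor of mesothelium and epicardium, from 3.33 and 4.15 to 8.05 and 8.61 (limma adjusted p = 2.73e-06). Tcf21, a factor of epicardium-derived fibroblasts, went from 2.39 and 2.37 to 6.28 and 6.42. The keratin gene Krt8 fell 4.04-fold, a call lost without any 1 of the 4 arrays (limma adjusted p between 0.105 and 0.129), and Krt18 did not pass. The summed signal of the whole list, in which those bright keratins dominate, was 13.56 and 13.63 on day 6 and 12.83 and 13.11 on day 12. The part of these cells in the matrix rise was not tested. Dcn, Tbx18, Aldh1a2 and Krt8 are among the genes that belong to this list and to another list here.

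Other cell types left smaller traces. In the endoderm list, 4 of 10 tested genes rose, including the yolk sac and liver protein genes Afp (2.80 and 2.75 to 8.99 and 9.25) and Apoa1 (3.06 and 3.01 to 8.03 and 7.72). The retinol carrier gene Rbp4 rose at least 22.5-fold. The call of Ttr, the carrier of thyroid hormone, was lost without any 1 of the 4 arrays (limma adjusted p between 0.0651 and 0.169). Without the filter on dim signals 3 of 21 endoderm genes rose, 14.3% beside 7.70% of all genes. The defining endoderm factors Foxa1, Foxa2, Sox17 and Hnf4a were below the filter, and the summed signal of the 10 went from 8.39 and 8.92 to 11.09 and 11.54. In the endothelial list, 4 of 13 rose, where 13.7% of all genes tested did. Among them was the angiopoietin receptor gene Tek (3.79 and 3.79 to 7.16 and 8.62). With no filter on dim signals, 4 of 25 endothelial genes rose, beside 7.70% of all genes. The call of Kdr, another of the 4, was lost without day 6 replicate B, day 6 replicate C or day 12 replicate A. Cdh5 and Pecam1, which define the endothelium, were higher on day 12 without passing (limma adjusted p = 0.0654 and 0.0897). Etv2, which starts the blood and vessel lineages, fell from 4.76 and 4.49 to 2.00 and 1.81. The summed signal of that list went from 9.41 and 9.24 to 10.63 and 10.998. None of the 8 tested blood genes was called by limma, and at an unadjusted p under 0.05 the count was 1 higher and 0 lower. Hba-x, an embryonic globin, had 2.05 and 2.00 on day 6 and 7.04 and 6.76 on day 12 (limma adjusted p = 0.0749), below its day 10 mean of 11.75. The test pools the spread of all 6 groups, and on day 8 replicate A of Hba-x was at 2.04, B at 10.77 and C at 11.28. The SE of its difference was 2.01, although its SDs were 0.04 on day 6 and 0.20 on day 12. The globin gene Hbb-bh1 went from 3.45 and 2.93 to 8.21 and 7.01, with a day 8 SD of 5.41 (SE 2.10). The summed blood signal went from 6.98 and 7.50 to 9.13 and 8.51. In the neural list, 2 of 11 rose, near the background share, Stmn2 and Map2. Map2 went from 2.41 and 2.39 to 5.29 and 5.61, and the call of Stmn2 was lost without day 6 replicate B (limma adjusted p = 0.0653) or day 12 replicate A (0.0613). The summed neural signal went from 9.42 and 9.68 to 10.29 and 10.25. In the epithelial list, 3 of 20 rose, near the background share, and Krt8, counted in the epicardial list too, fell. Krt7, a keratin of simple and mesothelial epithelia, went from 2.50 and 2.56 to 6.32 and 6.34, and the desmosome genes Dsc2 and Jup rose 4.45- and 3.73-fold. Its summed signal was 14.07 and 14.13 on day 6 and 13.39 and 13.57 on day 12. Their part in the other differences was not tested.

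A few genes of the undifferentiated state fell. Of 21 tested pluripotency genes 4 fell and 1 rose, where 9.33% and 13.7% of all genes tested did. In the fit on every gene, 4 of 27 fell and 1 rose, beside 5.04% and 7.70% of all genes. Lin28a, an RNA-binding protein that blocks let-7 microRNA maturation, had the largest fall of any gene once values under 4 were set to 4, from 11.81 and 11.75 to 7.02 and 6.53 (32.1-fold, limma adjusted p = 2.69e-05). Sall4 and Trim71 differed by -4.18 and -3.90, and the DNA methyltransferase gene Dnmt3b fell 6.74-fold. The summed signal of the list was 13.14 and 13.11 on day 6 and 11.32 and 10.92 on day 12. Klf2, also a gene of vessel walls, was the member that rose, 4.78-fold. Pou5f1 and Sox2, core factors of pluripotent cells, were still at 9.94 and 8.49 and at 8.19 and 8.57 on day 12, with differences of 0.23 and 0.16 that did not pass (limma adjusted p = 0.822 and 0.796). The arrays of both days overlapped in both genes.

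The position of the day 10 level between the day 6 and day 12 levels describes early and late genes. It was computed from group means with values under 4 set to 4, is given with no test, and shares its end points with the differences above. In the 1472 higher genes with such a value, the day 10 mean had covered a median of 64.0% of the difference, and in the 1005 lower genes 85.9%. Contractile risers stood at 81.6% and mitosis genes that fell at 85.9%, but replication genes that fell at 71.4%. Lower genes of early mesoderm were at 100%. Glycolysis genes stood at 62.6% on day 10 and at -5.25% on day 8, the latter over replicates B and C.

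Under 25% of the difference had been covered by day 10 in 299 of the 1472 higher genes (20.3%) and in 11 of the 1005 lower genes (1.09%). The late list members included collagen VI chains and fibroblast and epicardial genes. Col6a2, Col6a3, Lum, Tcf21, Sema3d, Rspo1 and Aldh1a2 had day 10 means below 4, that is 0% of the way. Dcn stood at 17.9% and Afp at 2.25%. Of the 11 epicardial genes that rose, 6 were late in this sense, whereas Upk3b, Wt1 and Bnc1, at 92.2%, 77.5% and 79.3%, were not. Late contractile genes included the ventricular light chain Myl2 and the caveolin of muscle, Cav3, both at about 21% (21.1% and 21.3%). By contrast Myl7 (96.3%), Pln (96.5%) and Hand2 (105%) were at or near their day 12 levels on day 10.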

How the data were processed

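The authors deposited 1 table of log2 signals for 45101 probe sets on 16 arrays. The log2 scale and GCRMA, which corrects background and normalizes arrays together, are taken from the submitters' processing notes and from the range of the values; the version and further settings are not given in the sources used here. Probe sets were named from the platform annotation: 34945 had 1 gene, 932 several, 9160 none and 64 were controls. Each of 18193 genes was represented by 1 probe set, the brightest on average across the 16 arrays, and 10802 had a log2 signal above 4 on 2 or more arrays. limma 3.58.1 (R 4.3.3) fitted the 6 group means on all 16 arrays, and the contrast was tested with Benjamini-Hochberg adjustment over all genes, after a check on simulated data. Day 8 replicate A stayed in that fit, and without it 1526 genes were higher and 1023 lower. With 2 arrays against 2, an exact permutation test cannot go below p = 0.3333, and p-values measure the spread between independent samples only. The members and the 30 gene lists were chosen with earlier results of these data known. Genes were named, though not every one of them is printed, from the 15 largest rises and falls with arrays that do not overlap, up to 8 called members of each list, the label's markers and the 2 brightest genes of each other cell type; further genes were named after their values were seen. Folds are between group means of log2 signals. Promoter sequences are RefSeq's, matched by symbol. Alternatives covered the filter, scaling, probe set choice, variance model, thresholds, a replicate block and leaving out each array.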

Additional observations from a re-analysis of the deposited data

Results flagged for a closer look

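The 18S ribosomal RNA control probe sets, which report on no gene of the comparison, had a mean log2 signal of 8.37 on the day 12 arrays, above the mean of 5.24 in growing cells and 6.32 on day 6. Probe sets with no gene name here also changed: of 1685 tested, 130 were called higher and 122 lower on day 12. Of 535 probe sets with several genes, 47 were higher and 41 lower, 16.4% in either direction. No group held enough arrays to be searched for a single outlying array.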

How the results depend on the processing

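The counts of all genes higher and lower, of contractile and matrix genes higher, of cell cycle genes lower and of metabolism genes higher and lower kept within 1.5 times their main value under the alternatives run, except as given here. A minimum of 2 log2 left 672 genes higher and 194 lower, 7 cell cycle genes lower, 17 metabolism genes higher and 0 lower. With no minimum difference 1835 genes were lower, and 91 metabolism genes were higher and 7 lower. Leaving out probe sets ending in _x_at or _s_at left 1 metabolism gene lower in place of 3. Leaving out each array in turn gave 1202 to 1370 genes higher, 786 to 953 lower, 41 to 46 contractile and 53 to 60 matrix genes higher, 74 to 87 cell cycle genes lower, and 47 to 54 metabolism genes higher with 1 to 2 lower; the group left with a single array is then assumed to vary like the others. Smaller lists moved further. Cell cycle inhibitors gave 4 to 7 rises in place of 10 and collagen maturation genes 5 to 9 in place of 8 when single arrays were left out; 7 endothelial genes rose in place of 4 with array weights, and 2 collagens outside the fibrillar and basement membrane lists in place of 8 with a filter at 6. Counts of 2 or 3 in other lists fell to 1 under some alternatives. Of 424 called list members and other genes named, 102 lost the call in at least 1 of these 4 fits. The uncalled difference of Pou5f1 ranged from -0.49 (without day 12 replicate A) to 0.96, and that of Sox2 from -0.10 (without day 6 replicate B) to 0.41, with -0.03 without day 12 replicate C. With the replicate letter as a block, 1545 genes were higher, 1109 lower and 99 cell cycle genes lower. Days 6 and 12 share only the letter C. On a measure other than the plain signals, 12 of 16 arrays correlated best with an array of their own letter. The 35 same-letter pairs had correlations from -0.21 to 0.32, with a median of 0.06, against -0.03 for other pairs. Day 6 C and day 12 C were at 0.07 on that measure and at 0.86 on the plain signals. Of 176 other probe sets of named genes, 3 differed in sign. Signals below 4 are not well above background, which limits what can be said of dim genes, and 2 arrays a group limit the precision.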

Other observations

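Hox genes, which give cells their position along the body axis, were grouped by name after the data had been seen. Of the tested members, Hoxb1 also belongs to the early mesoderm list. Of 20 tested members of the 4 clusters, 8 fell and 1 rose, where 9.33% and 13.7% of all genes tested did. Hoxd9, a gene of the trunk, fell from a mean of 8.96 to 4.80 and 4.09 on the day 12 arrays (limma adjusted p = 0.000676), and Hoxc8 from a mean of 7.21 to 2.74. The fall of Hoxa9 lost its call without any 1 of the 4 arrays (limma adjusted p between 0.0502 and 0.130). Hoxb4, of a more anterior position, was the member that rose, by 2.48, and Hoxb2 and Hoxb3 stayed bright with differences of 0.02 and -0.20. The falls were not limited to genes of the trunk. Hoxc4, of the same number as Hoxb4, and Hoxd1, of a lower number, differed by -2.68 and -3.21 (limma adjusted p = 0.00188 and 0.000418).

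Secreted factors outside the lists were among the large rises. Ptn, a heparin-binding growth factor, rose from 5.24 and 5.12 to 11.86 and 11.97, Clu, a secreted chaperone, rose 86.3-fold and Sfrp1, a Wnt antagonist, 80.3-fold. The Notch-related imprinted gene Dlk1 rose 45.0-fold, the chemokine gene Cxcl12 32.5-fold, and the insulin-like growth factor binding protein genes Igfbp5 and Igfbp3 23.2- and 21.9-fold. On the falling side stood Prtg, a neural and mesodermal adhesion protein, from 11.33 and 11.18 to 7.13 and 7.10, Greb1, 14.5-fold lower, Lef1, a transcriptional partner of Wnt signalling, 13.1-fold lower, and the galectin gene Lgals3, from 11.67 and 11.35 to 7.75 and 7.16.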
